A study of Mus musculus with 12 samples.

Results

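The mRNAs of 10 Toll-like receptors (TLRs) were followed in dendritic cells (DCs) grown from mouse bone marrow, with or without a knockdown of *Ppargc1b*, which encodes PGC-1β, a co-activator of transcription. The receptors were taken by symbol from the gene names of the count table, and all 10 were found among its 55471 genes. Of these, 5 are endosomal (*Tlr3*, *Tlr7*, *Tlr8*, *Tlr9* and *Tlr13*) and 5 sit at the cell surface (*Tlr1*, *Tlr2*, *Tlr4*, *Tlr5* and *Tlr6*). All 10 had enough counts to be tested. They were picked by name, with earlier results of these data known. Bone marrow of adult female C57BL/6 mice was grown with GM-CSF in every group, transduced with a retrovirus and sorted on its human CD8 reporter. The hairpin RNA it carried targeted either *Ppargc1b* (sh*Ppargc1b*) or, as the control, firefly luciferase (shControl). Cells of each kind were kept unstimulated or received interferon-β (IFN-β) for 6 h. RNA-seq gave 12 libraries in 4 groups of 3. The labels do not say whether the 3 libraries of a group came from separate cultures or animals, so p-values measure the spread between these libraries, which may be technical. They name 1 sh*Ppargc1b* genotype and no hairpin number, so loss of PGC-1β and other effects of a hairpin cannot be told apart.

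TLRs recognise conserved microbial structures and signal through the adaptors MyD88 or TRIF to NF-κB and interferon regulatory factors. Surface receptors read lipids, lipoproteins and flagellin: TLR2 pairs with TLR1 or TLR6 for lipopeptides, TLR4 binds lipopolysaccharide with MD-2, and TLR5 binds flagellin. Endosomal receptors read nucleic acids: TLR3 double-stranded RNA, TLR7 and TLR8 single-stranded RNA and its breakdown products, TLR9 unmethylated CpG DNA and TLR13 bacterial ribosomal RNA. They need the chaperone UNC93B1 to leave the endoplasmic reticulum and endolysosomal proteases to mature. Type I interferon is known to raise several TLRs in myeloid cells.

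The libraries held 49919648 to 77726101 counts, and 18228 genes were tested. *Ppargc1b* stood at 34.5 ± 1.94 CPM (counts per 1000000 after TMM scaling, mean ± SD, n = 3) in unstimulated shControl cells and at 19.4 ± 0.851 CPM in unstimulated sh*Ppargc1b* cells, 56.3% of control in the fit. After IFN-β it stood at 27.8 ± 3.93 CPM and 18.65 ± 2.83 CPM, 67.2% of control, with adjusted p = 3.2e-05 and 9.5e-04 for the pair of knockdown contrasts and no overlap between libraries in either. Markers fixed for dendritic cells were present, with unstimulated shControl means of 948.5 CPM for *Itgax* (CD11c), 2086 CPM for *Cd74* and 600.1 CPM for *H2-Ab1*, while *Flt3* stood at 1.94 CPM and *Cd209a* at 0 to 11 counts per library. Macrophage-like markers were present too, among them *Csf1r* at 1226 CPM and *Adgre1* (F4/80) at 152.8 CPM.

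The positions of the 10 genes are those of GENCODE M21 (GRCm38). *Tlr1* (chr5:64924679-64933563) and *Tlr6* (chr5:64952031-64960097) are neighbours on the minus strand, as are *Tlr7* (chrX:167304929-167330558) and *Tlr8* (chrX:167242696-167264329). *Tlr13* (chrX:106143204-106160493) lies on the plus strand. *Tlr3* (chr8:45395665-45411080) and *Tlr2* (chr3:83836272-83841767) are on the minus strand, and *Tlr4* (chr4:66827584-66930284), *Tlr5* (chr1:182954788-182976044) and *Tlr9* (chr9:106222598-106226883) on the plus strand. *Tlr1* and *Tlr6* share 259 stretches of 100 bases, 7.89% of those of *Tlr1* and 7.09% of those of *Tlr6*, so reads there could be split or lost. An antisense gene, *Gm45542*, overlaps 381 exon bases of *Tlr3* (7.32% of its exons) with 0 to 18 counts per library, and reads of the pair cannot be told apart there if strand was not used in counting. None of the other 7 receptors shared a 100-base stretch with another annotated gene.

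Promoter sequence was read as the 250 bases before the RefSeq start on the gene's strand (GRCm38.p6). Of the windows free of annotated exons, those of *Tlr8* and *Tlr6*, lower in sh*Ppargc1b* cells in both treatments, of *Tlr9*, raised strongly by IFN-β, and of *Tlr5*, the least abundant receptor, are shown. Capitals mark matches to 4 searched motifs on either strand: an interferon-stimulated response element core (ISRE, GAAANNGAA), a gamma-activated site (GAS, TTCNNNGAA), a PU.1 core (GAGGAAGT) and a partial NF-κB site (GGGACTTTC). Overlapping matches run together. The *Tlr6* window precedes a RefSeq start that lies 931 bases inside the gene as GENCODE annotates it, so it falls within the *Tlr6* span given above, between annotated exons.
Tlr8, chrX:167264330-167264579, minus strand: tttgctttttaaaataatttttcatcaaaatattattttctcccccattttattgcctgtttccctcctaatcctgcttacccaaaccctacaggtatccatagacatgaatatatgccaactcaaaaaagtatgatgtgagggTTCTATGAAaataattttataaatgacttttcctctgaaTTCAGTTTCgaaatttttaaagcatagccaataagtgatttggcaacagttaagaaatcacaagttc
Tlr6, chr5:64959167-64959416, minus strand: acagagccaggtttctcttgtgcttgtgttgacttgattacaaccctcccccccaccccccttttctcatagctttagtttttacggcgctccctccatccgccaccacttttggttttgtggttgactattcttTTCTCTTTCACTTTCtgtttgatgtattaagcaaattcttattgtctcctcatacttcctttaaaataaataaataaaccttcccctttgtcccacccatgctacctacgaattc
Tlr9, chr9:106222348-106222597, plus strand: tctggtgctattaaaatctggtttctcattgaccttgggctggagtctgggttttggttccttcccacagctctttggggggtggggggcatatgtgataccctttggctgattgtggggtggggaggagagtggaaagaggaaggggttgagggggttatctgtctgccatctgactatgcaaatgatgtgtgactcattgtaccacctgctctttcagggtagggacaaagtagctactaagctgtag
Tlr5, chr1:182954538-182954787, plus strand: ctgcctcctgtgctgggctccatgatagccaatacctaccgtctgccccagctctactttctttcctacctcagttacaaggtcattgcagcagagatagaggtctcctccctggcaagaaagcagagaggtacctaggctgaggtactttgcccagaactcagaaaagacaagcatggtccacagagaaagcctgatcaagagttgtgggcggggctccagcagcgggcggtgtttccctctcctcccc

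The *Tlr8* window held an ISRE core (TTCAGTTTC on the strand shown, beginning 67 bases before the start) and a GAS (TTCTATGAA, 106 bases before it). The *Tlr6* window held a pair of ISRE cores that share their end bases (TTCTCTTTC and TTCACTTTC, 115 and 109 bases before the start). In *Tlr1*, a PU.1 core lay 23 bases before the first listed start and a GAS 228 bases before the second. The second start lies 864 bases inside the gene as GENCODE annotates it, and the 2 windows hold 5 and 211 annotated exon bases. No match stood in the windows of *Tlr2*, *Tlr3*, *Tlr5*, *Tlr9* or *Tlr13*, nor in that of the second start of *Tlr6*, which says only that these letters are not there. The starts used for *Tlr3*, *Tlr2* and *Tlr13* lie 700, 159 and 71 bases inside the genes as GENCODE annotates them, and their windows overlap annotated exons. For *Tlr3*, the sequence before the GENCODE start was not searched. Among 32851 promoter windows of the same length, 7.13% held the ISRE core, 7.02% the GAS, 2.44% the PU.1 core and 0.289% the partial NF-κB site.

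In unstimulated shControl cells, TLR mRNAs spanned a wide range. Per kilobase of exon, *Tlr2* was highest at 132.6 ± 3.50 CPM per kb (n = 3), followed by *Tlr4* at 67.9 ± 5.035, *Tlr13* at 60.6 ± 1.03, *Tlr8* at 52.7 ± 2.48 and *Tlr7* at 32.8 ± 2.73 CPM per kb. The ranges of neighbours in that order did not overlap. The other 5 were low: *Tlr6* stood at 5.83 ± 0.605, *Tlr3* at 3.44 ± 0.338, *Tlr9* at 3.03 ± 0.323, *Tlr1* at 2.84 ± 0.427 and *Tlr5* at 0.223 ± 0.0254 CPM per kb. The ranges of *Tlr3* and *Tlr9* overlapped, as did those of *Tlr9* and *Tlr1*, so their order is not resolved. *Tlr5* was last in all 4 groups, with 18 to 104 counts per library.

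**Figure D1:**
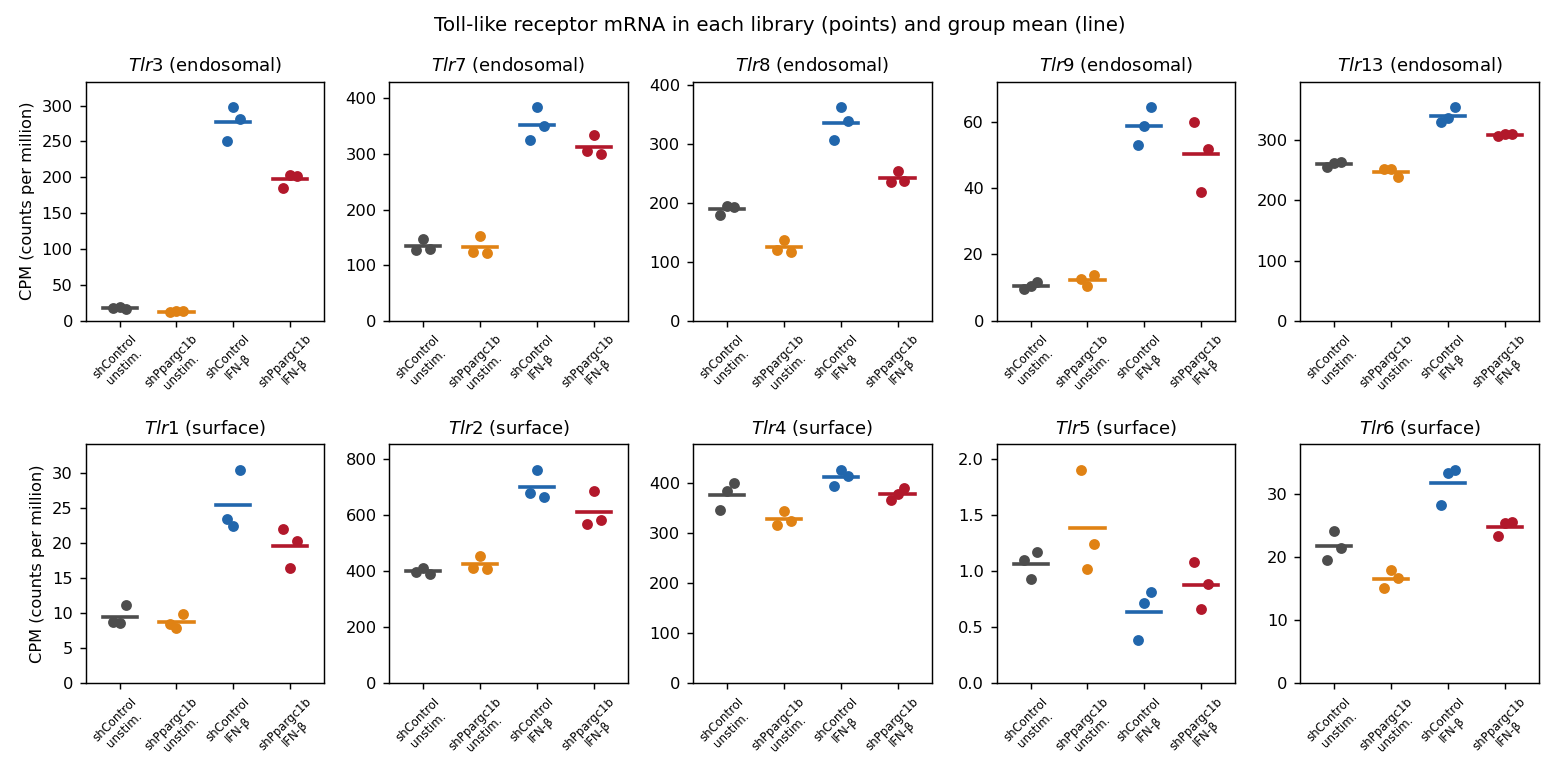
CPM (vertical axis, from 0, a separate scale for each gene) of the 10 receptors in the 4 groups; points are libraries and lines group means (n = 3). All 3 IFN-β libraries of *Tlr3*, *Tlr7*, *Tlr8*, *Tlr9* and *Tlr13*, and of *Tlr1*, *Tlr2* and *Tlr6*, lie above the unstimulated ones of the same hairpin. *Tlr3*, *Tlr6* and *Tlr8* are lower with sh*Ppargc1b* in both treatments.

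IFN-β raised 8 of the 10 receptors in shControl cells and 9 of 10 in sh*Ppargc1b* cells, and none fell past the threshold (adjusted p under 0.05). Over all tested genes, 23.7% rose and 24.6% fell with IFN-β in shControl cells, and 21.4% rose and 21.2% fell in sh*Ppargc1b* cells. The higher share of these calls was 49.0% and 50.2%, and 23.9% and 23.7% with library totals alone. *Tlr1*, *Tlr3*, *Tlr7* and *Tlr9*, 4 of the 10, rose at least 2-fold with either hairpin, against 7.15% (shControl) and 5.65% (sh*Ppargc1b*) of all tested genes. All 5 endosomal receptors rose with either hairpin, against 3 of 5 surface receptors in shControl and 4 of 5 in sh*Ppargc1b* cells. The median log2 fold change was 1.40 over the endosomal and 0.55 over the surface receptors in shControl cells, and 1.24 and 0.53 in sh*Ppargc1b* cells, beside -0.034 and -0.018 over all tested genes. These medians describe 5 genes each, and the difference between the classes was not tested.

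*Tlr3*, the sensor of double-stranded RNA, changed most. In shControl libraries it read 18.3, 19.4 and 15.98 CPM unstimulated and 251, 298 and 282 CPM after IFN-β. In sh*Ppargc1b* libraries it read 11.9, 13.5 and 12.96 CPM unstimulated and 186, 204 and 202 CPM after IFN-β. The groups were far apart with either hairpin: the rise was 15.45-fold in the shControl fit (log2 fold change 3.95 ± 0.080 SE, adjusted p = 3.4e-15) and 15.4-fold in the sh*Ppargc1b* fit (3.95 ± 0.081, adjusted p = 9.0e-15). By log2 fold change *Tlr3* ranked 114 of 18228 genes in shControl cells and 81 in sh*Ppargc1b* cells. Per kilobase it moved from 3.44 to 53.2 ± 4.54 CPM per kb in shControl cells, above the unstimulated level of *Tlr7*.

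*Tlr9*, the CpG DNA receptor, was second. It read 9.48, 10.4 and 11.7 CPM in unstimulated and 53.05, 58.8 and 64.4 CPM in IFN-β-treated shControl libraries. With sh*Ppargc1b* it read 12.6, 10.6 and 13.8 CPM unstimulated and 59.9, 38.95 and 51.95 CPM after IFN-β. No treated library reached down to an untreated one, and the rise was 5.58-fold in shControl cells (log2 2.48 ± 0.14, adjusted p = 6.6e-10) and 4.08-fold in sh*Ppargc1b* cells (2.03 ± 0.14, adjusted p = 8.2e-09). The treated sh*Ppargc1b* libraries were the most spread, and their lowest was replicate 2.

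*Tlr7* and *Tlr8*, the neighbouring receptors for single-stranded RNA, rose by different amounts. *Tlr7* read 127, 147 and 129 CPM in unstimulated and 324.5, 384 and 350.4 CPM in treated shControl libraries, a 2.63-fold rise (log2 1.40 ± 0.0845, adjusted p = 1.5e-09). In sh*Ppargc1b* libraries it went from 124, 152 and 122 CPM to 305, 335 and 299 CPM, 2.355-fold (log2 1.24 ± 0.084, adjusted p = 8.5e-09). *Tlr8* started higher than *Tlr7* in control cells. It read 179, 195 and 194 CPM unstimulated and 306.5, 362 and 339.5 CPM treated with shControl, a 1.78-fold rise (log2 0.83 ± 0.066, adjusted p = 3.9e-08). With sh*Ppargc1b* it went from 119, 136 and 117 CPM to 236, 254 and 237.5 CPM, 1.95-fold (log2 0.96 ± 0.066, adjusted p = 9.5e-09), again without overlap.

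*Tlr13*, the receptor for bacterial ribosomal RNA, was abundant from the start and moved least among the endosomal receptors. It read 256, 262 and 264.5 CPM in unstimulated and 330.0, 337 and 355 CPM in treated shControl libraries. The groups did not overlap, and the rise was 1.31-fold (log2 0.38 ± 0.039, adjusted p = 6.1e-07). With sh*Ppargc1b* it went from 252, 253 and 238 CPM to 308, 310.0 and 309.7 CPM, 1.25-fold (log2 0.32 ± 0.039, adjusted p = 6.5e-06).

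Among the surface receptors, the lipopeptide receptors rose. *Tlr1*, a partner of TLR2, read 8.77, 8.57 and 11.1 CPM unstimulated and 23.55, 22.5 and 30.5 CPM treated in shControl libraries, 2.695-fold higher (log2 1.43 ± 0.14, adjusted p = 4.1e-07). In sh*Ppargc1b* libraries it went from 8.54, 7.885 and 9.91 CPM to 22.1, 16.5 and 20.4 CPM, 2.23-fold (adjusted p = 6.0e-06). The groups did not overlap in either. *Tlr2* went from 399, 411 and 389.5 CPM to 678.5, 761 and 663.5 CPM in shControl libraries, 1.75-fold (log2 0.81 ± 0.069, adjusted p = 9.7e-08). With sh*Ppargc1b* it went from 413, 453 and 407 CPM to 569, 687 and 584 CPM, 1.45-fold (log2 0.53 ± 0.069, adjusted p = 1.4e-05), also without overlap. *Tlr6*, the other partner of TLR2, went from 19.6, 24.1 and 21.5 CPM to 28.2, 33.3 and 33.8 CPM with shControl and from 15.1, 18.0 and 16.7 CPM to 23.3, 25.4 and 25.5 CPM with sh*Ppargc1b*. Its rise was 1.47-fold (adjusted p = 7.4e-05) and 1.49-fold (adjusted p = 7.7e-05), with no overlap.

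*Tlr4*, the lipopolysaccharide receptor, showed small differences. It read 346, 385 and 400.3 CPM unstimulated and 395, 427 and 414 CPM treated in shControl libraries, which overlapped (log2 0.13 ± 0.053, adjusted p = 0.0615). In sh*Ppargc1b* libraries it went from 317, 344.5 and 325 CPM to 367, 379.5 and 390.2 CPM without overlap (log2 0.20 ± 0.053, adjusted p = 0.00544). The direction depends on the scaling: with library totals alone the values were -0.11 (adjusted p = 0.0727) and 0.0016 (adjusted p = 0.983), on a scale where the median of all genes lay at -0.27 and -0.22. The shControl difference passed as a rise in 9 of 18 alternative analyses, among them DESeq2 (adjusted p = 0.034), and its adjusted p ranged from 0.00971 to 0.437. *Tlr5*, the flagellin receptor, read 1.10, 0.934 and 1.17 CPM unstimulated and 0.389, 0.718 and 0.816 CPM treated in shControl libraries. In sh*Ppargc1b* libraries it read 1.91, 1.02 and 1.24 CPM unstimulated and 1.09, 0.666 and 0.886 CPM treated. The shControl groups did not overlap and the sh*Ppargc1b* groups did, and neither difference passed (log2 -0.70 ± 0.29, adjusted p = 0.0603, and -0.65 ± 0.28, adjusted p = 0.0729). The fall passed in 5 of 18 alternatives with shControl (adjusted p from 0.0117 with library totals to 0.234) and in 3 of 18 with sh*Ppargc1b* (from 0.0172 with library totals to 0.333).

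**Figure D2:**
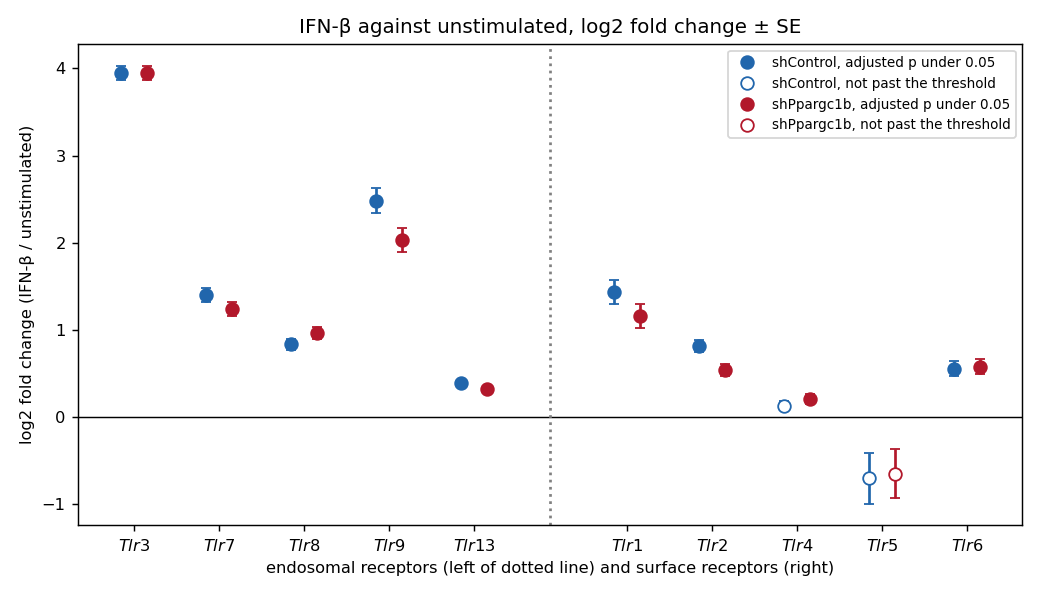
Log2 fold change of IFN-β against unstimulated (vertical axis) with its SE for each receptor, endosomal to the left and surface to the right of the dotted line, in shControl (blue) and sh*Ppargc1b* (red) cells; filled points have an adjusted p under 0.05. *Tlr3* stands at 3.95 in both. All 5 endosomal receptors and, among the surface receptors, *Tlr1*, *Tlr2*, *Tlr4* and *Tlr6* are above 0, and *Tlr5* is below 0 with wide error bars.

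The order of levels per kilobase changed with IFN-β below *Tlr2*. In treated shControl cells *Tlr2* led at 232.6 ± 17.5 CPM per kb. *Tlr8* (93.7 ± 7.81), *Tlr7* (86.5 ± 7.31), *Tlr13* (79.1 ± 2.975) and *Tlr4* (74.1 ± 2.88 CPM per kb) followed, and the ranges of neighbours among these 4 overlapped. *Tlr3* came next at 53.2, then *Tlr9* at 16.9 ± 1.64, *Tlr6* at 8.53 ± 0.832 and *Tlr1* at 7.62 ± 1.30 CPM per kb, with overlap only between *Tlr6* and *Tlr1*. In treated sh*Ppargc1b* cells *Tlr7* was second at 76.65 ± 4.66 CPM per kb and *Tlr8* came only after *Tlr4*, at 67.6 ± 2.76 against 68.2 ± 2.08 with overlap. *Tlr13* lay between *Tlr7* and *Tlr4* at 71.8 ± 0.293 CPM per kb, and *Tlr3*, *Tlr9*, *Tlr6*, *Tlr1* and *Tlr5* kept the order seen in treated shControl cells. With the longest annotated transcript in place of all exons, *Tlr4* was second in every group.

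Summed per kilobase, endosomal receptor mRNA made up 42.0 to 42.4% of the TLR level in the unstimulated shControl libraries and 49.5 to 51.7% after IFN-β. In sh*Ppargc1b* libraries the share was 38.2 to 39.0% unstimulated and 47.2 to 49.7% after IFN-β. The unstimulated ranges of the hairpins did not overlap, and the treated ones did. The endosomal sum went from 153 ± 5.69 to 329 ± 21.8 CPM per kb with shControl and from 131 ± 7.87 to 268 ± 5.84 with sh*Ppargc1b*. The surface sum went from 209 ± 6.14 to 323 ± 19.2 CPM per kb and from 207 ± 10.7 to 284 ± 21.0. These sums weigh abundant receptors most and were not tested.

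**Figure D3:**
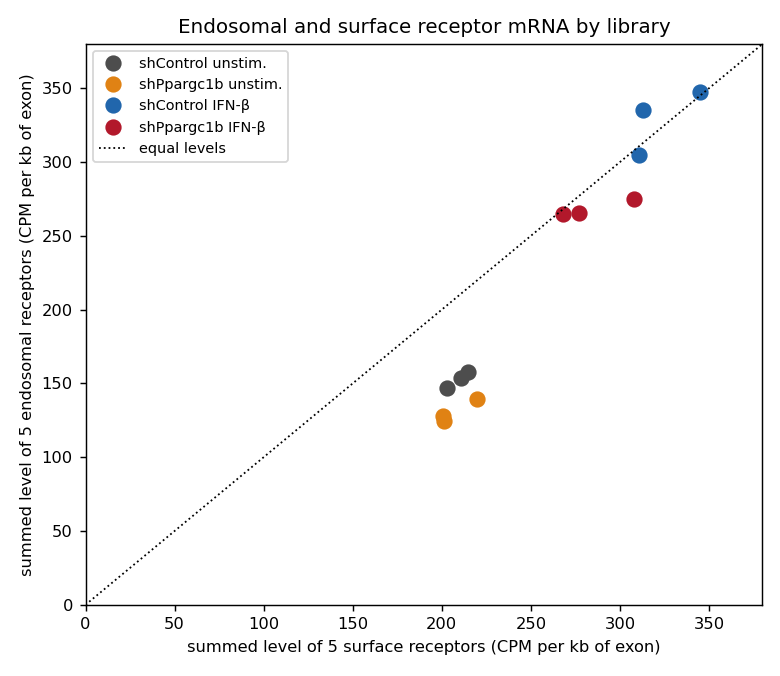
Summed level of the 5 endosomal receptors (vertical axis) against that of the 5 surface receptors (horizontal axis), both in CPM per kb of exon; each point is 1 of 12 libraries and the dotted line marks equal levels. Unstimulated libraries lie below the line, at 38.2 to 42.4% endosomal, and IFN-β libraries near it, at 47.2 to 51.7%.

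The next question was what the knockdown did to the receptors. In unstimulated cells, 4 of the 10 were lower with sh*Ppargc1b* (*Tlr3*, *Tlr4*, *Tlr6* and *Tlr8*), and after IFN-β 5 were lower (*Tlr1*, *Tlr3*, *Tlr6*, *Tlr8* and *Tlr13*). None was higher past the threshold in either, although 1, *Tlr9*, was in 1 of 18 alternatives for unstimulated cells. Over all tested genes, 11.1% were lower and 12.4% higher in unstimulated sh*Ppargc1b* cells, and 12.7% lower and 11.5% higher in treated ones. The receptors lower in both treatments were *Tlr3*, *Tlr6* and *Tlr8*, 3 of 10, against 7.37% of all tested genes. By class, 2 endosomal and 2 surface receptors were lower unstimulated, and 3 and 2 after IFN-β. The median log2 fold change was -0.07 (endosomal) and -0.11 (surface) unstimulated and -0.23 and -0.19 after IFN-β, beside -0.0049 and -0.011 over all tested genes. In bulk RNA, fewer cells of a type and less RNA per cell cannot be told apart.

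*Tlr8* was lowered most in unstimulated cells. Its library values, given above, did not overlap between hairpins in either treatment, and its level was 65.7% of control unstimulated (log2 -0.61 ± 0.066, adjusted p = 8.2e-06) and 72.1% after IFN-β (-0.47 ± 0.065, adjusted p = 8.1e-05). Its neighbour *Tlr7* differed little, at 99.1% of control unstimulated (log2 -0.01 ± 0.0835, adjusted p = 0.939) and 88.6% after IFN-β (-0.17 ± 0.0825, adjusted p = 0.15), and its libraries overlapped in both treatments. *Tlr3* stood at 71.4% of control unstimulated (log2 -0.49 ± 0.0805, adjusted p = 3.7e-04) and 71.2% after IFN-β (-0.49 ± 0.069, adjusted p = 9.5e-05). All 3 sh*Ppargc1b* libraries were below all 3 shControl libraries in both treatments. *Tlr6* stood at 76.5% (log2 -0.39 ± 0.089, adjusted p = 0.0047) and 77.7% (-0.36 ± 0.087, adjusted p = 0.00617), likewise without overlap.

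The remaining calls were small. *Tlr4* stood at 87.2% of control in unstimulated cells (log2 -0.20 ± 0.053, adjusted p = 0.0128) and 92.0% after IFN-β (adjusted p = 0.12), with no overlap of libraries in either. Its first call was lost without sh*Ppargc1b* unstimulated replicate 1 (adjusted p = 0.0535) and without shControl unstimulated replicate 2 (0.0508) or 3 (0.0701). *Tlr13* stood at 90.8% after IFN-β (log2 -0.14 ± 0.0385, adjusted p = 0.0151) and 95.0% before (adjusted p = 0.198), without overlap, and its call was lost without shControl IFN-β replicate 3 (adjusted p = 0.0634) and with no filter beyond a single count (adjusted p = 0.0738). *Tlr1* stood at 76.8% after IFN-β (log2 -0.38 ± 0.13, adjusted p = 0.0497), a call that was lost in 10 of 18 alternative analyses, with an adjusted p of up to 0.245 without shControl IFN-β replicate 3.

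*Tlr2*, *Tlr5*, *Tlr7* and *Tlr9* passed in neither treatment and their libraries overlapped in both. *Tlr2* stood at 106% of control unstimulated (adjusted p = 0.428) and 87.5% after IFN-β (log2 -0.19 ± 0.069, adjusted p = 0.0542). In record order, *Tlr2* was highest in replicate 2 of all 4 groups, and after IFN-β each sh*Ppargc1b* library was below the shControl library with the same place in that order. The labels give these libraries consecutive codes but do not say that they belong together. A fit blocked by the runs of codes called *Tlr2* lower after IFN-β (-0.19, adjusted p = 0.00128), as did 5 other alternatives of 18. It also called *Tlr7* (-0.17, adjusted p = 0.0031) and *Tlr4* (-0.12, adjusted p = 0.0261). *Tlr9* stood at 117% (log2 0.23 ± 0.14, adjusted p = 0.299) and 85.4% (-0.23 ± 0.13, adjusted p = 0.23). With all genes of at least 1 count tested, *Tlr9* was called higher unstimulated (0.25, adjusted p = 0.00976) and lower after IFN-β (-0.22, adjusted p = 0.012), and it was called lower after IFN-β without sh*Ppargc1b* IFN-β replicate 1 (-0.38, adjusted p = 0.0444). *Tlr5* was at 129% and 134% with wide errors (adjusted p = 0.38 and 0.357). Counting any separation, the sh*Ppargc1b* libraries lay wholly below the shControl ones for 5 of 10 receptors unstimulated and 6 of 10 after IFN-β, against 18.4% and 20.7% of all tested genes.

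**Figure D4:**
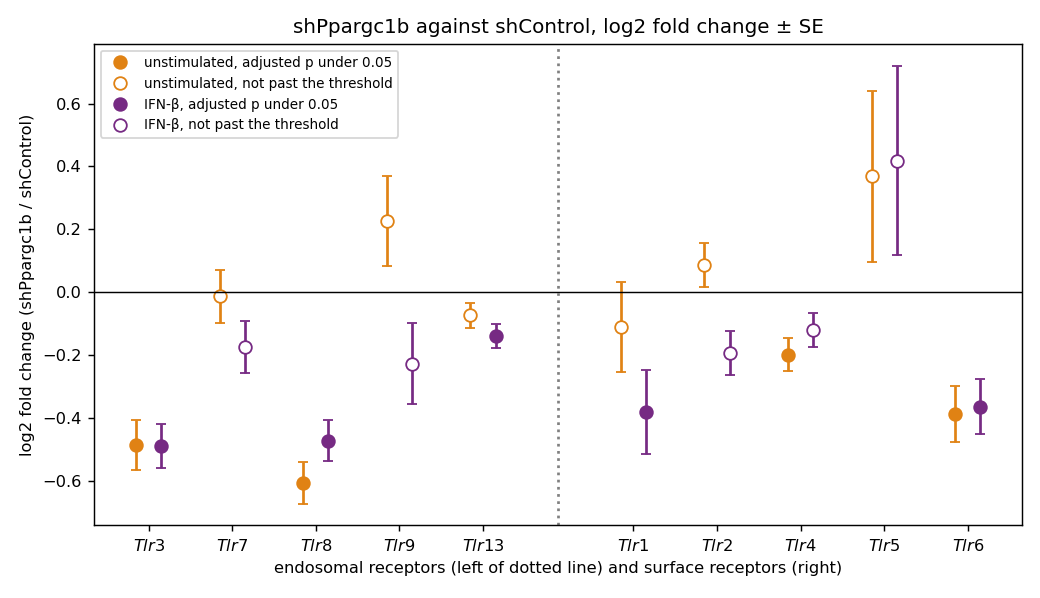
Log2 fold change of sh*Ppargc1b* against shControl (vertical axis) with its SE for each receptor, endosomal to the left and surface to the right of the dotted line, in unstimulated (orange) and IFN-β-treated (purple) cells; filled points have an adjusted p under 0.05. *Tlr3*, *Tlr6* and *Tlr8* lie between -0.61 and -0.36 in both treatments, while *Tlr7*, *Tlr2*, *Tlr5* and *Tlr9* have open points in both.

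Whether the IFN-β response differed between the hairpins was tested as an interaction. None of the 10 receptors passed, where 0.73% of all tested genes did. By the same edgeR test 2 of the 10 had an unadjusted p under 0.05, beside 1909 of 18228 tested genes. These 2 were *Tlr2* (log2 difference -0.28 ± 0.098, adjusted p = 0.265) and *Tlr9* (-0.45 ± 0.19, adjusted p = 0.417). DESeq2 called 0 of the 10 past the threshold. For *Tlr3* the difference was -0.0033 ± 0.11 (adjusted p = 0.996) and for *Tlr8* 0.13 ± 0.093 (adjusted p = 0.691). *Tlr2* passed in 3 alternatives, one of them without sh*Ppargc1b* IFN-β replicate 2.

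Marker lists of cell types were compared between the hairpins. Of all tested genes, 11.1% were lower and 12.4% higher in unstimulated sh*Ppargc1b* cells, and 12.7% lower and 11.5% higher in treated ones. The counts of markers here and in the next paragraph are to be read against these shares. Of 10 macrophage-like markers, 3 were lower unstimulated and 6 after IFN-β and none was higher, with summed levels of 2796 to 2957 CPM (shControl) and 2531 to 2612 CPM (sh*Ppargc1b*) unstimulated and 3569 to 3818 and 3094 to 3281 CPM after IFN-β. *Mrc1* fell the most in level, from a mean of 307 to 107.5 CPM in unstimulated cells. Of 5 monocyte-like markers, 2 were lower and 1 higher in each treatment, with sums of 1296 to 1353 and 806 to 991 CPM unstimulated and 1506 to 1520 and 1048 to 1260 CPM after IFN-β. Of 9 tested dendritic-like markers, 5 were higher unstimulated and 6 after IFN-β and none was lower, with sums of 3545 to 4173 and 4101 to 4701 CPM and of 3833 to 4616 and 4513 to 5187 CPM. *Tlr3*, *Tlr6* and *Tlr8* were lower in the same libraries, and the part of these markers in that result was not tested.

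Other lists bear on receptors that are best known from other cells. Plasmacytoid dendritic-like markers summed to 93.4 to 117.5 CPM (shControl) and 141 to 165 CPM (sh*Ppargc1b*) unstimulated and to 203 to 220.5 and 219 to 226 CPM after IFN-β, mostly *Tcf4*. *Siglech*, *Ly6d* and *Klk1* were at 0 to 13 counts per library, while *Spib* held 279 to 530, *Ccr9* 72 to 238, *Pacsin1* 62 to 141 and *Cox6a2* 19 to 58. *Tlr7* and *Tlr9* were measured in every library, and which cells held their mRNA was not tested. Of 7 conventional type 1 dendritic-like markers 1 was higher with sh*Ppargc1b* in each treatment, near the share of all tested genes. *Xcr1* held 3 to 19 counts, *Cadm1* 28 to 53 and *Itgae* 34 to 120. *Batf3* held 495 to 842, *Clec9a* 976 to 1437 and *Wdfy4* 10524 to 16471 counts. B lymphocyte-like markers summed to at most 2.51 CPM and T or natural killer lymphocyte-like ones to at most 0.497 CPM. Neutrophil-like markers summed to 40.1 to 102 CPM over the shControl and 88.7 to 166 CPM over the sh*Ppargc1b* libraries, with 2 of 10 higher in each treatment, and mast cell or basophil-like ones to at most 13.6 CPM, with 1 of 6 tested higher in each.

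Beyond the 10, 67 other genes of the TLR pathway were listed by role, and 66 could be tested. With sh*Ppargc1b*, 12 were higher and 12 lower in unstimulated cells, where 12.4% of all tested genes were higher and 11.1% lower, and 7 were higher and 21 lower after IFN-β, where 11.5% were higher and 12.7% lower. IFN-β raised 42 and lowered 8 with shControl, against 23.7% and 24.6% of all tested genes, and raised 40 and lowered 9 with sh*Ppargc1b*, against 21.4% and 21.2%. The counts by role below are to be read against the same shares. Among 2 further receptors, *Tlr11*, which binds profilin of protozoa, fell with the knockdown from 6.67 ± 1.496 to 3.06 ± 0.622 CPM unstimulated (log2 -1.12, adjusted p = 5.1e-04) and from 17.8 ± 1.89 to 8.54 ± 1.80 CPM after IFN-β (-1.06, adjusted p = 3.7e-04), and rose with IFN-β in both. *Tlr12* passed in no contrast.

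Of 6 ligand-binding partners, 2 were higher and 1 lower with sh*Ppargc1b* unstimulated, and 2 higher and 2 lower after IFN-β. *Cd14*, the co-receptor that hands lipopolysaccharide to TLR4, rose from 185 ± 9.65 to 250.1 ± 18.7 CPM unstimulated (log2 0.44, adjusted p = 7.0e-05) and was higher after IFN-β too (0.23, adjusted p = 0.0104). *Cd36*, a scavenger receptor that presents lipids to TLR2, was higher by 0.35 and 0.38 (adjusted p = 1.3e-05 and 5.9e-06). *Ly86* (MD-1), the partner of the TLR4-like CD180, fell by 0.56 and 0.67 on the log2 scale (adjusted p = 7.3e-04 and 1.1e-04), and *Cd180* itself fell by 0.25 after IFN-β (adjusted p = 0.00275), beside -0.05 unstimulated (adjusted p = 0.572), with no interaction past the threshold (-0.20 ± 0.075, adjusted p = 0.329). IFN-β raised *Cd180* from 107 ± 2.72 to 466 ± 40.2 CPM in shControl cells, log2 2.12.

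Of 9 chaperones and trafficking factors, 7 rose with IFN-β with either hairpin. *Unc93b1*, the chaperone that carries endosomal TLRs, went from 282 ± 9.79 to 464 ± 13.6 CPM with IFN-β in shControl cells (log2 0.72, adjusted p = 2.7e-10). With sh*Ppargc1b* it stood at 230.0 ± 1.92 CPM unstimulated (log2 -0.30, adjusted p = 3.5e-05) and 381 ± 6.65 CPM treated (-0.28, adjusted p = 5.3e-05). Other chaperones and trafficking factors of the list moved in both directions with the knockdown. *Hsp90b1* (gp96) was higher unstimulated (0.14), *Lrrc59* in both treatments (0.17 and 0.16) and *Cnpy3* after IFN-β (0.22). *Cnpy4* was lower unstimulated (-0.27), and *Slc15a4* (-0.16) and *Tmed7* (-0.18) were lower after IFN-β.

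Of 10 endolysosomal proteases and nucleases, which mature the receptors or trim their ligands, 1 was higher and 3 lower with sh*Ppargc1b* in each treatment. *Pld4*, an exonuclease that degrades ligands of TLR9 and TLR7, fell from 196 ± 16.01 to 127.5 ± 16.75 CPM unstimulated (log2 -0.62, adjusted p = 4.0e-04) and by 0.61 after IFN-β. Cathepsin K (*Ctsk*) fell by 0.60 and 0.66 and cathepsin S (*Ctss*) by 0.16 and 0.19. Cathepsin B (*Ctsb*) was higher unstimulated (0.23) and *Dnase2a* after IFN-β (0.19). *Rnaset2a* and *Rnaset2b*, near-identical copies whose reads may be split, passed in no knockdown contrast. IFN-β raised 6 and lowered 1 of the list with either hairpin.

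Of 5 tested adaptors (*Sarm1* was too low), 1 was lower unstimulated and 3 after IFN-β. *Ticam2* (TRAM), which links TLR4 to TRIF, fell by 0.49 and 0.55 on the log2 scale (adjusted p = 2.1e-04 and 7.6e-05). After IFN-β, *Myd88* fell by 0.20 (adjusted p = 0.0161) and *Tirap* by 0.16 (adjusted p = 0.0335). IFN-β raised 4 of the 5 with either hairpin, and *Myd88* went from 67.0 ± 5.71 to 129.9 ± 2.16 CPM in shControl cells (log2 0.95).

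Of 18 kinases and ubiquitin ligases, 1 was higher and 3 lower with sh*Ppargc1b* unstimulated, and 6 were lower after IFN-β. *Irak4* (-0.24 and -0.21), *Ikbke* (-0.19 and -0.34) and *Map3k8* (-0.32 and -0.25) were lower in both treatments. *Irak2* (-0.19), *Tbk1* (-0.15) and the ubiquitin ligase *Peli1* (-0.39) were lower after IFN-β, and *Traf3* was higher unstimulated (0.18). IFN-β raised 10 and lowered 3 with shControl, and raised 9 and lowered 3 with sh*Ppargc1b*.

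Of 6 transcription factors downstream of the receptors, 3 were higher with sh*Ppargc1b* unstimulated (*Rel* by 0.40, *Nfkb1* by 0.24 and *Irf7* by 0.59) and 1 after IFN-β (*Rel* by 0.22). IFN-β raised 5 and lowered 1, *Irf3*, with either hairpin. Of 10 negative regulators, 3 were higher unstimulated (*Tnfaip3*, which encodes A20, by 0.57, *Tnip1* by 0.22 and *Tnip3* by 0.13) and *Cyld* was lower (-0.17). After IFN-β, *Tnfaip3* was higher (0.20), and *Cyld* (-0.24), *Trafd1* (-0.24) and *Irak3* (-0.17) were lower. IFN-β raised 6 and lowered 1 of these with shControl, and raised 5 and lowered 2 with sh*Ppargc1b*.

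Genes with patterns most like those of *Tlr3* and *Tlr1*, the endosomal and the surface receptor with the widest range of group means (4.43 and 1.53 on the log2 CPM scale), were sought among 8742 genes. Likeness was the distance between the 4 centred group means of log2 CPM. For *Tlr3* the nearest were *Phf11b* (distance 0.21), *Trim30c* (0.31) and *Gbp3* (0.31). Mean log2 CPM of *Phf11b* was 4.03, 3.80, 8.05 and 7.72 in the order shControl and sh*Ppargc1b* unstimulated, then shControl and sh*Ppargc1b* treated, beside 4.16, 3.68, 8.11 and 7.62 for *Tlr3*. For *Tlr1* the nearest were *Gm47075* (distance 0.049) and *Gm10388* (0.056), and *Gm47075* stood at 3.31, 3.19, 4.77 and 4.40 beside 3.24, 3.13, 4.66 and 4.29 for *Tlr1*. These are descriptions over 4 groups of 3 libraries.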

How the data were processed

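RNA of 12 libraries was sequenced from ribosomal RNA-depleted total RNA. According to the study's methods and the submitters' processing notes, the authors trimmed reads with Trim Galore 0.6.0, aligned them with STAR (2.7.8a in the notes) to mm10 and deposited raw counts per gene of a GENCODE annotation, unnormalised. The strand setting is not given in the sources used here. Groups came from the labels, which carry no replicate numbers. Replicates are numbered in record order.

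Counts were tested with edgeR 4.0.16 (R 4.3.3), with TMM scaling, the quasi-likelihood test and Benjamini-Hochberg adjustment over all genes tested, in 1 fit of all 12 libraries. Genes were kept by filterByExpr (minimum count 10, minimum total 15), leaving 18228 of 55471 genes with 99.96% of counts. The threshold was an adjusted p under 0.05. No pair of replicates agreed within sampling noise (chi-square per gene 8.54 to 21.3). Levels per kilobase used annotated exon lengths (GENCODE M21). Promoters were taken from RefSeq: 8 of 10 receptors were in the table, and *Tlr4* and *Tlr7* were not. DESeq2 1.42.0, other scalings, filters and designs and each library left out in turn were the alternatives. The fit was tested on simulated data before use.

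The receptors and the lists of pathway genes and cell type markers were chosen with earlier results of these data known. All 10 receptors are described. Of the pathway lists, values are given for genes past the threshold in a knockdown contrast, or otherwise for those with the largest change. Likeness was sought for the endosomal and the surface receptor with the widest range of group means, and 1 gene it found is not reported here. With 49919648 to 77726101 counts per library, precision is lowest for *Tlr5* (18 to 104 counts).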

Additional observations from a re-analysis of the deposited data

Results flagged for a closer look

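No receptor of the 10 showed an IFN-β response that differed between the hairpins past the threshold. Of 66 other tested genes of the TLR pathway, 2 did in the test of the interaction, against 0.73% of all tested genes. Of the 133 genes called over all genes, 122 had a negative difference, as these 2 did. The alternative analyses below were tabulated for the 10 receptors and for all genes together, not for these 2. *Peli1*, a ubiquitin ligase of IRAK signalling, rose with IFN-β by 1.65 on the log2 scale in shControl cells and by 1.23 in sh*Ppargc1b* cells, a difference of -0.42 ± 0.07 (adjusted p = 0.0119). *Irf7*, a transcription factor downstream of TLR7 and TLR9, rose by 4.02 and 3.30, a difference of -0.72 ± 0.14 (adjusted p = 0.0244), and stood at 40.7 ± 7.19 and 61.5 ± 6.504 CPM unstimulated and at 660 ± 35.1 and 607 ± 26.8 CPM treated in shControl and sh*Ppargc1b* cells.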

How the results depend on the processing

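In 18 alternative analyses of each contrast (17 for the interaction), the calls that *Tlr3*, *Tlr6* and *Tlr8* were lower with sh*Ppargc1b* in both treatments held in every one, with adjusted p-values of up to 0.00266 and 6.5e-04 (*Tlr3*), 0.0312 and 0.0301 (*Tlr6*) and 7.9e-05 and 5.1e-04 (*Tlr8*), and so did the rise with IFN-β of *Tlr1*, *Tlr2*, *Tlr3*, *Tlr6*, *Tlr7*, *Tlr8*, *Tlr9* and *Tlr13* with either hairpin. Of 890 values of single receptors, 818 kept direction and side of the threshold, 33 gained a call, 16 lost one and 23 changed sign, and the cause was not tested. Library totals in place of TMM turned *Tlr4* with IFN-β in shControl cells to -0.11 and the *Tlr3* interaction to 0.033, and the share of all calls that were higher with IFN-β fell from 49.0 to 23.9% (shControl) and from 50.2 to 23.7% (sh*Ppargc1b*). Testing all genes with at least 1 count turned *Tlr7* in unstimulated sh*Ppargc1b* cells to 0.0083 and called *Tlr9* higher there (0.25). After IFN-β that setting lost the *Tlr13* call (-0.13) and gave 7 lower receptors in place of 5. It added *Tlr2* (-0.18, adjusted p = 0.0014), *Tlr7* (-0.16, adjusted p = 0.0119) and *Tlr9* (-0.22, adjusted p = 0.012). Blocking the fit by consecutive library codes, which the labels do not call batches, gave 8 lower receptors after IFN-β in place of 5 (*Tlr2*, *Tlr4* and *Tlr7* were added) and turned the *Tlr3* interaction to 0.0006. The block also called more genes in general for the knockdown after IFN-β, 5180 in place of 4414 in either direction. For the interaction, 2 receptors passed with all genes (*Tlr2* and *Tlr9*), 1 with the block (*Tlr2*), and 0 to 1 with each library left out (1, *Tlr2*, without sh*Ppargc1b* IFN-β replicate 2). Over all genes, 133 passed it, against 84 with library totals, 449 with DESeq2, 525 with all genes, 425 with the block and 36 (without shControl unstimulated replicate 3) to 271 (without sh*Ppargc1b* IFN-β replicate 2) with each library left out. Leaving out 1 library changed the sign of small values: *Tlr1* (-0.21 to 0.020) and *Tlr7* (-0.12 to 0.060) in unstimulated sh*Ppargc1b* cells, and the interactions of *Tlr3* (-0.081 to 0.093), *Tlr5* (-0.20 to 0.35) and *Tlr6* (-0.068 to 0.11). The labels give no replicate numbers and do not say that consecutive codes pair libraries, so that block stands as an alternative, not as a paired design. Counts of 18 to 104 limit *Tlr5*.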
